A study of Mus musculus with 16 samples.

Results

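The genes described here are 6 markers of horizontal basal cells, the reserve stem cells of the olfactory epithelium: the keratin genes Krt5, Krt14, Krt15 and Krt17, the transcription factor gene Trp63 and the adhesion molecule gene Icam1. They were chosen by name, as the probesets annotated with these symbols, and each had 1 probeset (TC1500002269.mm.2, TC1100003760.mm.2, TC1100003757.mm.2, TC1100003763.mm.2, TC1600000368.mm.2 and TC0900000184.mm.2, in that order). They make up 6 of the 22206 gene probesets of the array. The rule uses no measured value.

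All mice carried S100a5-tauGFP, in which the S100a5 gene, expressed in olfactory sensory neurons, drives green fluorescent protein (GFP). Olfactory mucosa was dissociated and sorted into GFP+ and GFP- cells, so the GFP- fraction is defined by the absence of GFP and was not purified for basal cells. The 4 groups, with 4 Clariom S arrays each, were GFP+ cells of mice given odorant, GFP- cells of mice given odorant, GFP+ cells of mice given vehicle and GFP- cells of mice given vehicle. The 24 mice were of both sexes, aged 7 to 12 weeks, and each spent 40 h alone in a clean air chamber. After 26 h, pulses of 10 s came every 20 min, of odorant or of filtered air as the vehicle. The compound is called odorant below, because the sample labels give it as bourgeonal but the title of the series says indole. Each array held cells pooled from 3 mice, which makes 8 pools, each split into a GFP+ and a GFP- array.

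Horizontal basal cells lie flat on the basal lamina beneath the neurons and are mostly quiescent. After injury they divide and can rebuild the neurons and supporting cells of the epithelium. They are known for the filament partners Krt5 and Krt14 and for p63, the product of Trp63, which holds them in the resting state and whose loss lets them be activated. Icam1 is a surface protein bound by integrins of leukocytes, used to isolate these cells and also made by endothelial and immune cells.

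None of the 6 genes exceeded the background level on any array, in either fraction and with either exposure: 0 of 96 values. Background was set on each array by its 23 antigenomic controls, probesets made to match nothing in the mouse genome, as their 95th percentile. It lay at 6.57 to 6.87 log2 signal units over the 16 arrays. On the same arrays, 46.7% to 50.9% of all gene probesets exceeded it, and 9869 of 22206 (44.4%) exceeded it on no array. The nearest value to background was that of Krt15, 1.72 units under it, and Krt17 came no nearer than 2.95 units. Among all gene probesets of an array, the 6 ranked between the percentiles 2.3 (Krt17) and 37.2 (Krt15). In these bulk pools, fewer cells of a type and less RNA per cell cannot be told apart.

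**Figure D1:**
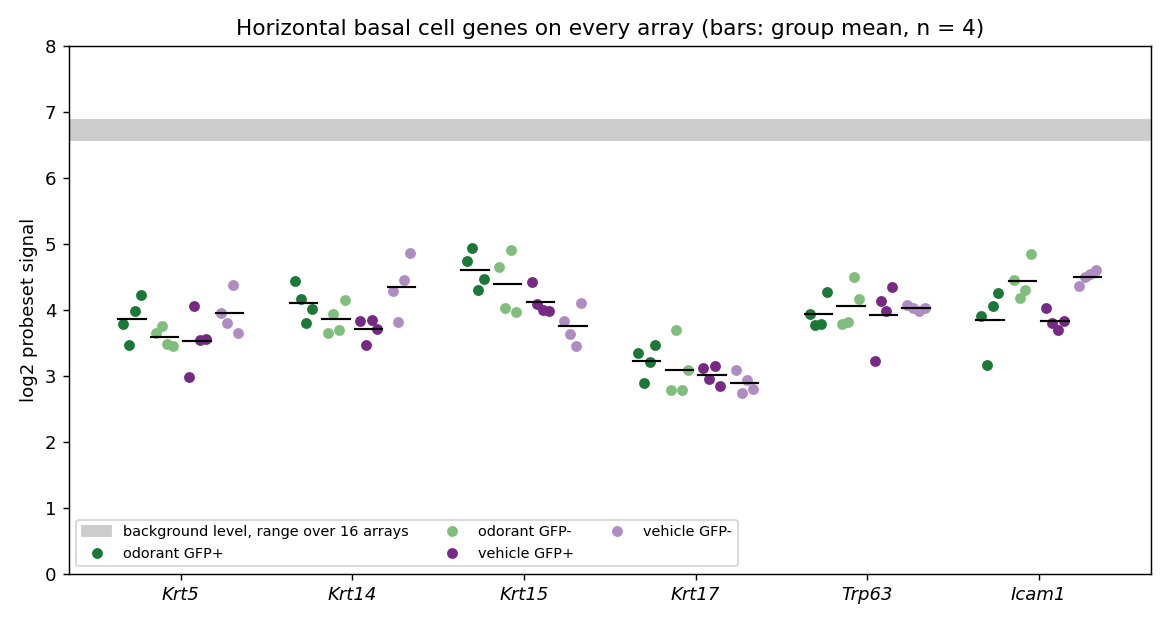
Log2 probeset signal of the 6 horizontal basal cell genes (horizontal axis) on each of the 16 arrays, by group, with bars at the group mean (n = 4). The grey band is the range of the background level over the arrays, 6.57 to 6.87, and all 96 points lie under it.

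How far the genes lay under background depended on which controls set the level. The antigenomic probesets are grouped by GC class, and those of classes 8 to 18 (11 probesets) averaged 2.27 to 4.20 units, whereas the other 12 averaged 5.67 to 6.68. Against the median of all antigenomic probesets (5.29 to 5.88) or of 5222 negative control probesets (5.10 to 5.78), 0 of 96 values were above. Against the highest probeset of classes 8 to 18 on each array (3.76 to 4.42), 25 of 96 were above. These were 8 of 16 arrays for Icam1, 6 for Trp63, 5 each for Krt14 and Krt15, 1 for Krt5 and 0 for Krt17, while 74.7% of all gene values passed that level. Against the median of those classes (2.48 to 2.73) all 96 were above, as were 98.9% of all gene values. The GC content of the members' probes is not used here, so which class fits each gene was not tested. No sample of isolated horizontal basal cells was on these arrays, so whether the 6 probesets respond to their transcripts was not tested either.

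**Figure D2:**
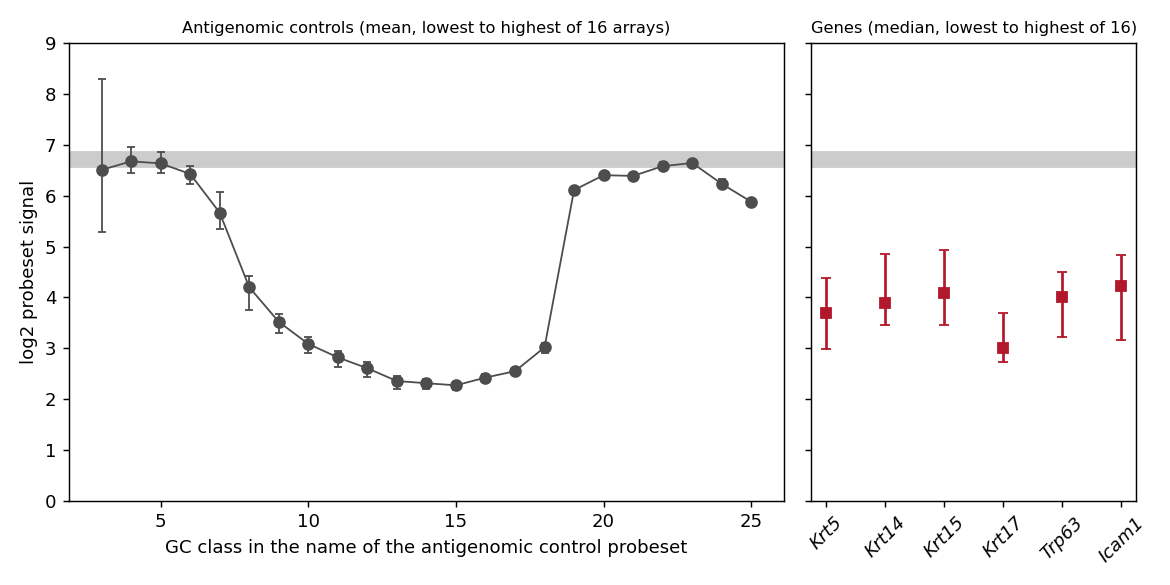
Left, log2 signal of the antigenomic control probesets by GC class (points, mean over 16 arrays; bars, lowest to highest). Right, the 6 genes on the same scale (squares, median over 16 arrays; bars, lowest to highest), all under the grey background band of 6.57 to 6.87 and within or above the range of the controls of classes 8 to 18.

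Icam1 was the member with the clearest difference between the fractions. With vehicle, it was at 4.02, 3.80, 3.70 and 3.83 log2 units in GFP+ cells, against 4.36, 4.49, 4.54 and 4.60 in GFP- cells (replicates 1 to 4). Every GFP+ array was under every GFP- array, and limma gave a difference of -0.66 (SE 0.13, 95% interval -0.96 to -0.37, adjusted p = 0.0059). Of the 6 genes it was the only one called, lower in GFP+ cells, beside 9.97% of all gene probesets called lower (17.7% in either direction), and 0 of 6 were called higher, beside 7.76% of all. Groups that did not overlap, with GFP+ lower, occurred for 1 of 6 members and 11% of all probesets. With GFP+ higher, they occurred for 0 of 6 and 11.9% of all.

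With odorant, Icam1 was at 3.90, 3.17, 4.05 and 4.26 in GFP+ cells, against 4.45, 4.18, 4.30 and 4.84 in GFP- cells. The groups overlapped, with GFP+ replicate 2 the lowest of the 8 values. The difference of -0.60 (SE 0.24, interval -1.13 to -0.065) did not pass (limma adjusted p = 0.17, and 0.057 within pools). Within pools, the GFP+ array was lower than its GFP- partner in 8 of 8 pools as deposited, by differences of -1.02 to -0.24. With array medians subtracted, odorant replicate 3 went the other way (-2.28 in GFP+ and -2.35 in GFP- cells). How many of all probesets have such pool counts was not counted, here and below. Since every value was under background, these differences are given with no fold. The vehicle call depends on the scaling. With array medians subtracted, the difference was -0.30 (limma adjusted p = 0.080), and with quantile normalization -0.61 (0.012). The deposited difference passed within pools (0.022) and with any 1 array left out (0.0086 to 0.020). Set against the median difference of all genes, Icam1 was at -0.74 as deposited. With medians subtracted this value is the same by construction, because that step shifts all genes alike, so it says nothing about the scaling. The deposited medians were 6.29 to 6.38 on GFP+ arrays and 6.64 to 6.76 on GFP- arrays, and subtracting them moves the median difference of all genes with vehicle to 0.45 units, against 0.082 as deposited. Of the 9869 probesets at background on all arrays, 863 (8.74%) were also called with vehicle.

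The promoter of Icam1 is shown because it was the member called, and that of Krt5 for comparison with a gene that was not. Both are the 250 bases before the gene start, from RefSeq on GRCm38.p6, written 5' to 3' on the gene's own strand. Capitals mark, in Icam1, the letters GGAAATTCC, an NF-kB type site (bases -153 to -145 from the start), and, in Krt5, a p53 family half-site (bases -95 to -86), the type of sequence p63 binds. Of 6 members, 3 had a window in the RefSeq table (Krt5, Krt14 and Icam1).
Icam1 promoter, chr9:21015690-21015939, + strand: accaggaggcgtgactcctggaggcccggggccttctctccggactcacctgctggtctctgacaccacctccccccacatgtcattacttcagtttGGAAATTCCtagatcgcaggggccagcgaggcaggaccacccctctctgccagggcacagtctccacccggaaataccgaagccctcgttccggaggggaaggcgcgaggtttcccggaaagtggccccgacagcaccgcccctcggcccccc
Krt5 promoter, chr15:101712906-101713155, - strand: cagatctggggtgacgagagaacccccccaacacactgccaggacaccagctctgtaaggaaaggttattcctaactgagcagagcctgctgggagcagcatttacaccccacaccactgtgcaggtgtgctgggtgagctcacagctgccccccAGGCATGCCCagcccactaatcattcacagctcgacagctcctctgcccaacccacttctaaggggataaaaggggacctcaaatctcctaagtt
Among 32851 windows of all genes, searched on both strands, 94 (0.286%) held GGAAATTCC and 7.13% held the p53 family half-site. TATAAA (in 12.4% of windows) and the AP-1 letters TGANTCA (in 6.75%) were in neither printed window. A match is a run of letters and not a site shown to be bound.

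Krt14, the type I keratin that pairs with Krt5, had a difference in the same direction with vehicle. It was at 3.83, 3.46, 3.85 and 3.70 units in GFP+ cells, against 4.29, 3.81, 4.45 and 4.85 in GFP- cells. GFP- replicate 2 lay among the GFP+ values, and all 4 pools were lower in GFP+. The difference of -0.64 (SE 0.21, interval -1.11 to -0.17) did not pass in the fit of these 8 arrays (limma adjusted p = 0.063). It passed within pools (adjusted p = 0.043), with quantile normalization (0.048) and with all 16 arrays in the fit (0.034). Without vehicle GFP- replicate 2 it also passed (difference -0.82, adjusted p = 0.016). With array medians subtracted the difference was -0.28 (adjusted p = 0.30), and replicate 2 was no longer lower in GFP+. With odorant the sign was the other way: 4.44, 4.16, 3.80 and 4.01 in GFP+ cells, against 3.65, 3.94, 3.70 and 4.15 in GFP- cells. Those groups overlapped, with a difference of 0.24 (SE 0.18, limma adjusted p = 0.48).

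Krt5, the type II keratin of basal layers, split in the same way. With odorant it was at 3.79, 3.46, 3.98 and 4.23 in GFP+ cells, against 3.64, 3.75, 3.48 and 3.46 in GFP- cells, and 3 of 4 pools were higher in GFP+. With vehicle it was at 2.98, 4.05, 3.54 and 3.56 in GFP+ cells, against 3.95, 3.79, 4.38 and 3.65 in GFP- cells, and 3 of 4 pools were lower in GFP+. Both pairs of groups overlapped, and the differences of 0.28 (SE 0.18) and -0.41 (SE 0.24) had limma adjusted p values of 0.41 and 0.27. With array medians subtracted, the odorant differences of Krt5 (0.60, adjusted p = 0.028) and Krt14 (0.56, adjusted p = 0.037) passed. That scaling put the median difference of all probesets at 0.42 and called 7757 of 22206 higher with odorant. Over that median, Krt5 was at 0.18 and Krt14 at 0.14.

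Krt15, a type I keratin of basal and progenitor cells in stratified epithelia, was at 4.74, 4.94, 4.30 and 4.46 in GFP+ cells with odorant, against 4.65, 4.03, 4.91 and 3.97 in GFP- cells. With vehicle it was at 4.42, 4.08, 4.00 and 3.98 in GFP+ cells, against 3.83, 3.63, 3.46 and 4.11 in GFP- cells. GFP+ was higher in 6 of 8 pools, but neither difference passed (0.22, SE 0.24, limma adjusted p = 0.64 with odorant; 0.36, SE 0.18, 0.19 with vehicle). With array medians subtracted the vehicle difference was 0.73 and passed (adjusted p = 0.0091). That scaling put the median difference of all probesets with vehicle at 0.45 and called 10363 of 22206 higher.

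Krt17, a type I keratin induced in stressed and wounded skin, was the dimmest member, at 2.73 to 3.69 over the 16 arrays. It was higher in GFP+ in 7 of 8 pools, by at most 0.56 units. The differences were 0.15 with odorant and 0.12 with vehicle (limma adjusted p = 0.75 and 0.60). With array medians subtracted the second passed at 0.49 (adjusted p = 0.022), beside a median of 0.45 for all probesets. Trp63, the gene of p63, lay at 3.23 to 4.50, and its 4 vehicle GFP- arrays, at 3.98 to 4.07, spread least of any group of it. Its pools divided 4 lower and 4 higher, with differences of -0.13 with odorant and -0.10 with vehicle (limma adjusted p = 0.76 and 0.79), which became 0.19 and 0.26 with array medians subtracted. Probe sequences are not used here, and signal shared between the related keratin genes was not tested.

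With odorant, 0 of 6 members were called between the fractions, beside 11.4% of all probesets (3.57% higher and 7.84% lower in GFP+ cells). Groups did not overlap for 0 of 6, beside 7.86% of all with GFP+ higher and 9.07% with GFP+ lower, and 1 member had an unadjusted p under 0.05 (Icam1), beside 22.2% of all. With vehicle 2 did (Icam1 and Krt14), beside 30.7% of all. The median difference of the 6 was 0.18 with odorant and -0.26 with vehicle, beside 0.10 and 0.082 for all probesets.

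The odorant was then compared with vehicle within each fraction, which asks whether the exposure moved these genes. Whether the exposure also changed which cells were sorted as GFP+ was not tested. In GFP+ cells limma called 0 of 6 members, beside 0% of all probesets, and 2 of 6 had an unadjusted p under 0.05, beside 3.82% of all. These were Krt15 (0.49, SE 0.17) and Krt14 (0.39, SE 0.17), with positive differences and both with an adjusted p of 0.999. Krt5 differed by 0.33 (interval -0.18 to 0.85), Krt17 by 0.21, Trp63 by 0.015 and Icam1 by 0.0072 (interval -0.48 to 0.49).

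In GFP- cells limma again called 0 of 6, beside 0% of all probesets, with 2 of 6 at an unadjusted p under 0.05, beside 6.84% of all. Krt15 differed by 0.63 (SE 0.24, adjusted p = 0.71), with 4 of 4 arrays above the vehicle mean. Krt14 differed by -0.49 (SE 0.22, adjusted p = 0.73), with 4 of 4 arrays under the vehicle mean. Krt5 differed by -0.36 (adjusted p = 0.74), also with 4 of 4 arrays under the vehicle mean, and the other 3 by -0.056 to 0.19. How many of all probesets have such array counts was not counted. Groups overlapped for all 6 members in both fractions. Among all probesets, 1.38% had all odorant arrays higher and 0.919% lower in GFP+ cells, and 2.24% and 1.92% in GFP- cells.

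The interaction subtracts the odorant difference of GFP- cells from that of GFP+ cells and asks whether the exposure acted differently in the fractions. It was 0.88 for Krt14 (SE 0.28, interval 0.28 to 1.48, adjusted p = 0.96) and 0.69 for Krt5 (SE 0.31, interval 0.047 to 1.34, adjusted p = 0.96). The other 4 lay between -0.14 and 0.063. Limma called 0 of 6 members, beside 0% of all probesets, with 2 of 6 at an unadjusted p under 0.05, beside 4.92% of all. These 5 comparisons share arrays: a low vehicle GFP+ array, for example, enters 3 of them, so the signs above are not separate observations.

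**Figure D3:**
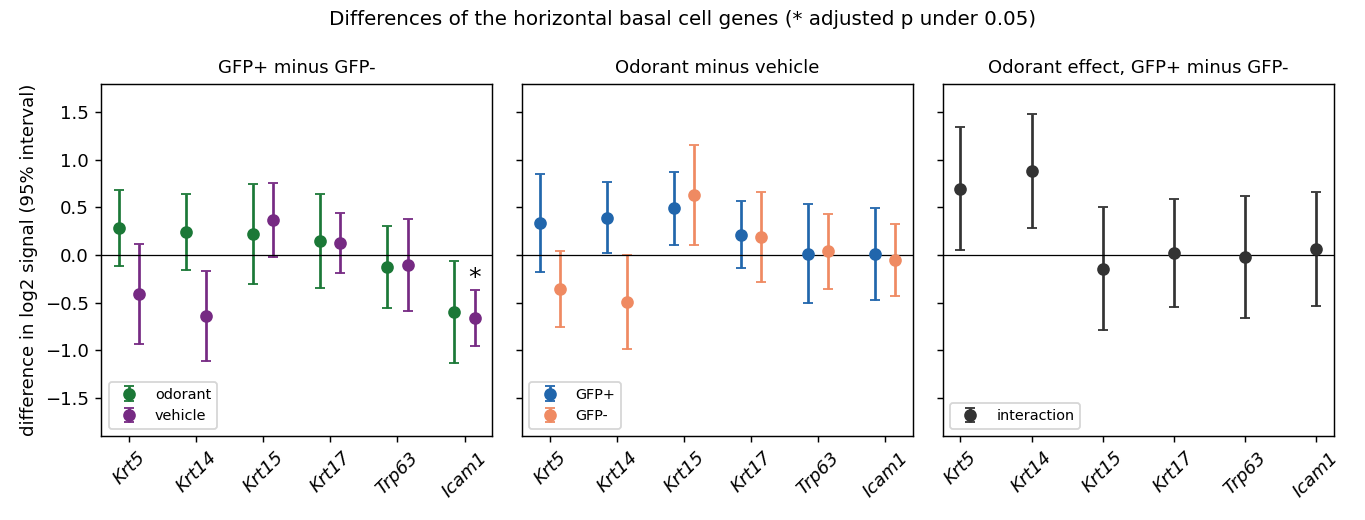
Differences in log2 signal of the 6 genes with 95% intervals from limma (n = 4 arrays a group). Left, GFP+ minus GFP- cells; centre, odorant minus vehicle; right, the interaction. The star marks Icam1 with vehicle, the single call; Krt5 and Krt14 have opposite signs with odorant and vehicle on the left.

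The 6 genes were also set against each other. Over 16 arrays the 15 pairs had Pearson r of -0.44 to 0.37 (median 0.033), and after centring within groups -0.55 to 0.44. Krt5 and Krt14, which form filaments together, had r = 0.17, and -0.31 after centring. These are descriptions over arrays that share groups and pools, of values under background. By the same measure over 16 arrays, among 10390 probesets above background on at least 4 arrays, the nearest to Icam1 was Eef1a1, a translation elongation factor gene (r = 0.97), followed by Olfr1420 (0.91). The nearest to the mean of the 6 was Olfr930 (0.78), followed by Ints13 (0.74). The first for Krt5 was Aggf1 (0.83), for Krt14 Ankrd24 (0.77), for Krt15 Alg9 (0.80), for Krt17 Dock9 (0.80) and for Trp63 Zfp932 (0.70). Over the 8 GFP- arrays centred within group, among 10448 probesets, other genes came first: Olfr166 for Icam1 (r = 0.98, followed by Olfr75-ps1 at 0.92) and Olfr713 for the mean of the 6 (0.97). Eef1a1 was not among the first 5 for Icam1 there. Each is the highest of many candidates.

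Genes that act beside these 6 were read from lists of structural partners, regulators and ligands, between fractions with vehicle. The counts stand beside 7.76% of all probesets called higher and 9.97% called lower in GFP+ cells. Of 12 other keratins, 3 were lower and 1 higher in GFP+ cells, and 7 were at background on all 16 arrays. Krt18, a keratin of simple epithelia and of the supporting sustentacular cells, was at 7.42 ± 0.20 in GFP+ cells and 11.12 ± 0.45 in GFP- cells (SD, n = 4), 13.0-fold lower (limma adjusted p = 1.7e-06). Krt8, its filament partner, was lower by at least 4.12-fold and was at background on all GFP+ arrays. Krt19 and Krt20, also keratins of simple epithelia, were at background on all 16 arrays, as Krt5 and Krt14 were. Both were picked by hand, outside the naming rule, with their values in view. Krt7 of the same list, also outside that rule, went the other way. It was above background on 0 of 4 GFP+ and 3 of 4 GFP- arrays and was called lower in GFP+ cells (difference -2.66, limma adjusted p = 6.2e-04).

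Genes of adhesion to the basement membrane and between cells were called in both directions. Of 10 hemidesmosome and basement membrane genes, 4 were lower and 1 higher in GFP+ cells, and the 4 lower calls became 0 with array medians subtracted and 1 with quantile normalization. Itgb1, an integrin subunit of many cell types, was 1.51-fold lower (limma adjusted p = 0.0090). Cd151, a tetraspanin partner of laminin-binding integrins, was at 6.66 ± 0.16 in GFP+ cells and 7.30 ± 0.23 in GFP- cells (adjusted p = 0.019). It exceeded background on 1 of 4 GFP+ arrays and 4 of 4 GFP- arrays, so no fold is given. Of 10 desmosome genes, 3 were lower and 1 higher. Dsp, the plaque protein desmoplakin, was at 5.51 ± 0.43 in GFP+ cells and 6.91 ± 0.62 in GFP- cells, above background on 0 of 4 GFP+ and 2 of 4 GFP- arrays (adjusted p = 0.010). Dsc2, a desmosomal cadherin, was above background on 0 of 4 GFP+ arrays and 1 of 4 GFP- arrays (adjusted p = 0.0035).

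Of 10 genes of the p63 family and its targets, 1 was higher and 0 lower, beside 7.76% and 9.97% of all probesets. The 1 was Bnc1, a transcription factor gene of basal keratinocytes at background on all arrays. Its difference was 0.42 (limma adjusted p = 0.049, and 0.085 within pools). Egfr, a growth factor receptor of basal cells, differed by -0.37 (adjusted p = 0.057), also at background throughout. The Notch pathway, which acts in the choices of basal cells, had 2 of 11 higher and 3 lower. Its smallest p values belonged to the ligand Dll1 (difference -1.34, adjusted p = 5.0e-04) and the receptor Notch2 (-1.25, adjusted p = 0.0044), both at background in both groups.

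Several genes that NF-kB induces, as it does Icam1, or whose products bind Icam1, were lower in GFP+ cells. Of 11 NF-kB targets and genes induced with Icam1, 6 were lower and 0 higher (median difference -0.83). Cxcl1, Ccl2, Vcam1, Relb and Nfkb2 were not called, with differences from -0.029 (Relb) to -0.56 (Nfkb2). The cytokine gene Il1b was at 7.31 ± 0.97 in GFP+ cells and 12.70 ± 0.32 in GFP- cells, 41.9-fold lower with 3 of 4 GFP+ arrays above background (limma adjusted p = 8.3e-06), and the NF-kB inhibitor Tnfaip3 was 10.9-fold lower. Among 7 ligands and relatives of Icam1, 3 were lower and 0 higher. The leukocyte integrin subunits Itgam and Itgb2 were at least 14.9-fold and 7.26-fold lower, at background in GFP+ cells (adjusted p = 5.5e-05 and 1.8e-04). Which cells gave these differences was not tested.

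Other genes reported in horizontal basal cells had 4 of 11 lower and 0 higher. Cd44, a hyaluronan receptor also carried by leukocytes, fell by at least 8.49-fold (6.41 ± 1.17 in GFP+ cells, above background on 3 of 4 arrays, and 10.00 ± 0.92 in GFP- cells; limma adjusted p = 0.0015). Pax6, a transcription factor also present in globose basal and sustentacular cells, was at 5.29 ± 0.37 in GFP+ cells and 6.44 ± 0.16 in GFP- cells (adjusted p = 0.0019), above background on 0 of 4 GFP+ arrays and 1 of 4 GFP- arrays. With odorant the same 8 lists gave 1 to 5 lower and 0 or 1 higher between the fractions, beside 7.84% and 3.57% of all probesets. None of their members was called between odorant and vehicle in either fraction or in the interaction.

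Several marker lists for other mucosal cells moved with the fractions, and their values stand here beside the Icam1 difference. Of all probesets, 9.97% were called lower in GFP+ cells with vehicle and 7.84% with odorant. Immune markers were lower in GFP+ cells for 9 of 9 genes with vehicle and 9 of 9 with odorant. Their summed level (log2 of the summed linear signal) was 9.87 to 11.16 in GFP+ and 15.62 to 17.32 in GFP- cells with vehicle, and 9.91 to 11.33 against 15.33 to 17.38 with odorant. The neutrophil gene S100a8 differed by at least 281-fold with vehicle (adjusted p = 1.5e-06), at background on 3 of 4 GFP+ arrays. The part of immune cells in the Icam1 difference was not tested. All 8 endothelial markers were at background on all 16 arrays and 0 were called.

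Globose basal cells are the active progenitors beside the horizontal basal cells. Of the markers of these and of cycling cells, 8 of 8 were lower in GFP+ cells with vehicle and 6 of 8 with odorant. These counts were 6 and 5 with array medians subtracted and 8 and 4 within pools. Without dim probesets, where fewer were tested, they were 3 and 2. Birc5, Cdk1 and Neurog1 were at background on all arrays. Mki67, a proliferation marker, was at least 13.3-fold lower and Kit, a receptor of globose basal cells, at least 2.01-fold lower (limma adjusted p = 3.6e-05 and 4.5e-05). With vehicle, sustentacular markers were lower for 10 of 11, Bowman gland markers for 5 of 8 and immature neuron markers for 6 of 8, while 2 of 8 mature neuron markers were higher (7 of 8 with array medians subtracted, 1 within pools). With odorant, the lower counts were 4 of 11 (8 within pools), 5 of 8 and 5 of 8. Of 8 mature neuron markers, 1 was higher (8 of 8 with array medians subtracted, 0 within pools). Medians subtracted, 10363 of all 22206 probesets were called higher with vehicle and 7757 with odorant. The Bowman gland calls with vehicle were Sox9, Aqp5, Ascl3, Ltf and Lyz1, and which cells gave these signals was not tested. Muc5ac, Bpifb9b and Obp2a were not called, though Bpifb9b and Obp2a were within pools. The summed level of the 6 horizontal basal genes was 6.28 to 6.39 in GFP+ and 6.42 to 6.73 in GFP- cells with vehicle, and 6.48 to 6.73 in GFP+ and 6.50 to 6.69 in GFP- cells with odorant. On at least 1 of the 16 arrays, 5 of 8 globose basal and cycling, 11 of 11 sustentacular, 7 of 8 Bowman gland and 9 of 9 immune markers exceeded background. So did 8 of the 11 other horizontal basal cell genes, several of which other cell types also express, and 0 of the 6 described here. Mature neuron markers were above background on every array of both fractions (8 of 8 genes).

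**Figure D4:**
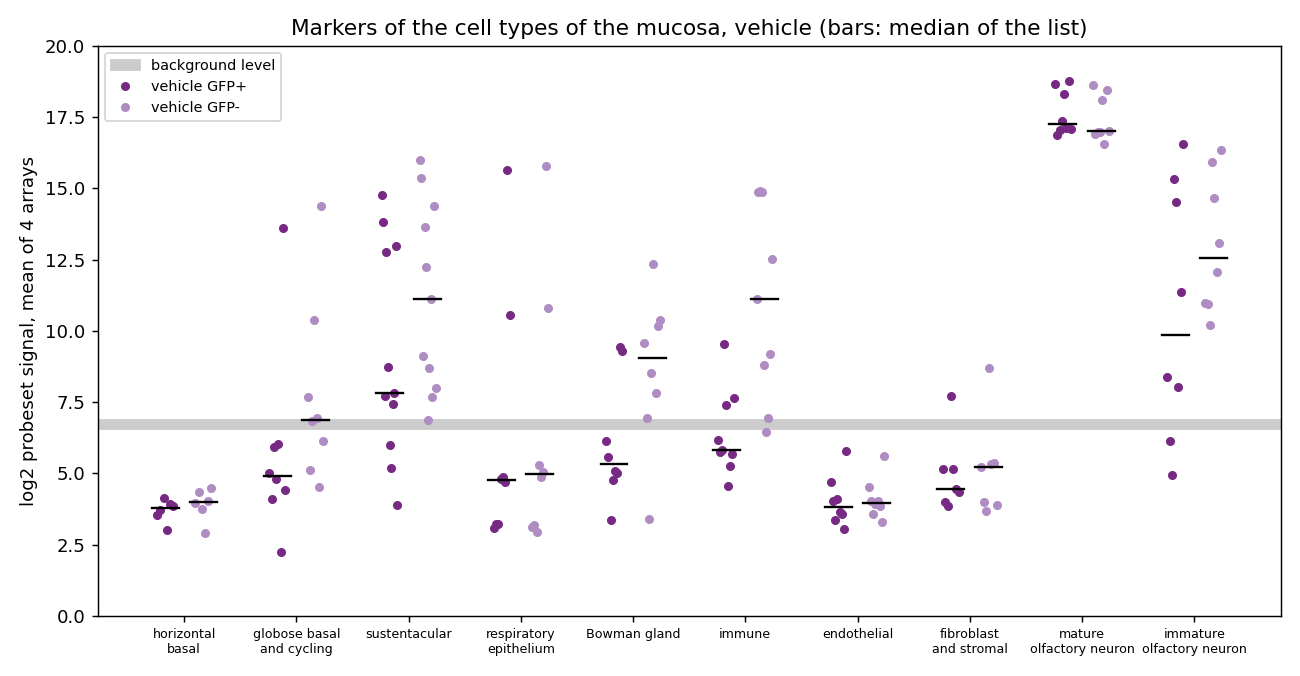
Log2 signal, as the mean of 4 vehicle arrays, of each marker gene (points) of 10 cell types, in GFP+ cells (left of each pair) and GFP- cells (right), with bars at the median of the list. Horizontal basal and endothelial points all lie under the grey background band (6.57 to 6.87), and globose basal, sustentacular, Bowman gland and immune medians are higher in GFP- cells.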

How the data were processed

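The authors deposited log2 probeset signals of 16 arrays, made with Affymetrix Expression Console per the submitters' processing notes. Its version, background and normalization methods, and the genome build of the annotation, were not named by any of the sources used here, so no probeset positions are printed. The 2 promoter windows carry RefSeq's own GRCm38.p6 coordinates. The values were used as deposited. Of 28846 probesets, 6640 controls were left out, leaving 22206, of which 19572 carry 1 gene symbol, 0 several and 2634 none. The number of arrays limits precision. Nothing in the labels says more about the replicates than that each is a pool of 3 mice.

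Tests used limma 3.58.1 in R 4.3.3 (lmFit, eBayes). P-values were two-sided and adjusted by Benjamini-Hochberg across the 22206 probesets, with a threshold of 0.05, on the 8 arrays of the 2 groups, or all 16 for the interaction. The fits were tested on simulated data with known shifts. Plots used matplotlib 3.10.9 in Python 3.11.15. A fold is a lower bound where the dimmer group's mean, or all its arrays, lay under background, with the background level in place of lower values, and only where all 4 arrays of the brighter group exceeded background.

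By the count of mice, both fractions of 1 number and treatment came from the same pool. Their values centred within groups correlated across genes at r of 0.11 to 0.16 with vehicle and 0.014 to 0.36 with odorant. Odorant and vehicle arrays of the same number share only the number (r of -0.034 to 0.25 in GFP+ and -0.10 to 0.30 in GFP- cells).

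The 6 genes, lists, tests and named-gene rule were chosen with earlier results of these data known. Named genes are the members, the 2 list members with the smallest p with vehicle, and the genes with the highest likeness. Alternatives were quantile normalization, array medians subtracted, no dim probesets, all arrays in 1 fit, the pool or replicate number as a block, an intensity trend, and leaving out each array. Other background levels were added after the data were seen.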

Additional observations from a re-analysis of the deposited data

How the results depend on the processing

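Of 432 values of the 6 genes under the alternatives, 387 kept their direction and side of the threshold, 8 newly passed, 1 no longer passed and 36 changed sign. Of 952 list counts, 824 stayed within 1.5 times, and these include counts of 0 that stayed 0. Mature neuron markers called higher in GFP+ cells with odorant ranged from 0 to 8, against 1 in the main fit. With vehicle, the members called lower in GFP+ cells numbered 2 with quantile normalization, 2 with all 16 arrays in the fit, 2 with the replicate block (pairing by pool), and 0 with array medians subtracted or without dim probesets, where no member is left to test. They numbered 1 to 2 over the fits leaving out 1 array, the 2 without vehicle GFP- replicate 2. With array medians subtracted, 2 members were higher in GFP+ with vehicle (Krt15, 0.73, adjusted p = 0.0091; Krt17, 0.49, adjusted p = 0.022, both limma) and 2 with odorant (Krt5, 0.60, adjusted p = 0.028; Krt14, 0.56, adjusted p = 0.037). With medians subtracted, 10363 of all 22206 probesets were called higher with vehicle and 7757 with odorant. The block changed no other call of a member.

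Over all genes, 1723 were higher and 2213 lower in GFP+ with vehicle, against 10363 and 1687 (12050 in all) with array medians subtracted and 2544 and 2034 with quantile normalization. With odorant the counts were 793 and 1742, against 7757 and 1520 (9277 in all) and 1266 and 1662, with 1661 called without dim probesets. Odorant against vehicle in GFP+ gave 0 to 3 calls (3 without vehicle GFP+ replicate 4) and the interaction 0 to 1 (1 without vehicle GFP- replicate 1). Of 96 member values, 25 and 96 exceeded the highest and the median antigenomic probeset of classes 8 to 18.

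Trp63 differed by 0.26 with vehicle and 0.19 with odorant with array medians subtracted, and by -0.041 in the GFP+ odorant comparison with quantile normalization. In that comparison Icam1 was at -0.047 with quantile normalization and -0.0019 with medians subtracted. In the interaction, quantile normalization gave -0.0097 for Krt17 and -0.024 for Icam1, and subtracted medians -0.024 for Krt17. Leaving out 1 array gave Trp63 -0.25 to 0.13 between fractions with vehicle and -0.24 to 0.017 with odorant. Odorant against vehicle in GFP+ cells gave Trp63 -0.22 to 0.16 and Icam1 -0.13 to 0.23. In GFP- cells it gave Krt17 -0.013 to 0.29, Icam1 -0.19 to 0.030 and Trp63 -0.11 to 0.13. The interaction gave Krt15 -0.28 to 0.028, Krt17 -0.078 to 0.23, Trp63 -0.26 to 0.12 and Icam1 -0.075 to 0.29. The cause of these changes was not tested. Signal over background limits all 6 genes.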
